A study of Homo sapiens with 12 samples.

Results

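The insulin-like growth factor (IGF) system was examined at the RNA level through 10 genes chosen by name: the ligand gene IGF2, the receptor genes IGF1R, IGF2R and INSR, and the binding protein genes IGFBP2, IGFBP3, IGFBP4, IGFBP5, IGFBP6 and IGFBP7. All 10 were found by symbol among the 59653 gene rows of the count table, and 9 of them passed the filter on low counts; IGF2 did not. The libraries were total RNA from human cells made from induced pluripotent stem cells, with IMR-90, a human lung fibroblast line, given as the cell line. The labels call these cells neurons, but NPC, an abbreviation left unexplained, also stands in each sample title. Of the 12 libraries, 6 were of cultures given an siRNA that served as negative control (siNC) and 6 of cultures given an siRNA against ZCCHC17 (siZCC), a gene for an RNA-binding zinc knuckle protein. The question was which genes of the IGF system differed between siZCC and siNC. Whether the 6 libraries of a group came from separate cultures is not stated, so p-values measure the spread between these libraries, which may be technical.

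IGF2 and its relative IGF1 are secreted growth factors that signal through IGF1R, a receptor tyrosine kinase, and through forms of the insulin receptor INSR. IGF2R, also the cation-independent mannose 6-phosphate receptor, takes IGF2 up for degradation in lysosomes and sorts lysosomal enzymes. The IGF-binding proteins hold IGFs outside the cell, lengthen their life and limit or focus their access to IGF1R, and proteases such as pappalysin release the ligand by cutting them. In the developing brain the system is known for supporting growth and survival of neural progenitors and neurons, with IGF2 made largely by choroid plexus, meninges and vessels.

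The siNC libraries held 90755953 to 120023356 counts each and the siZCC libraries 76115083 to 105389055, a lower depth. ZCCHC17, the target, had 53.99 to 61.0 counts-per-million (CPM) in siNC and 9.37 to 10.6 CPM in siZCC. All values here are CPM scaled by trimmed mean of M-values (TMM) factors. Neuron markers were present in every library (12 of 12 with a mean over 1 CPM; summed level 3404 to 3893 CPM in siNC and 3101 to 3575 CPM in siZCC), with 1 higher and 5 lower in siZCC. The libraries also held markers of neural progenitors (9 of 9 over 1 CPM; VIM, a filament gene, was the most abundant, at a mean of 3572 CPM), of astroglia (7 of 7; GFAP at 634 CPM) and of dividing cells (8 of 8; summed level 672 to 785 CPM in siNC against 520 to 610 CPM in siZCC, all 8 lower). By these markers the libraries were not of neurons alone. Of the 9 neural progenitor markers 3 were higher and 1 lower in siZCC, and of the 7 astroglial markers 3 were higher and 1 lower. Over all genes tested 11.4% were called higher and 10.8% lower at an adjusted p under 0.05. In such bulk libraries fewer cells of a type and less RNA per cell cannot be told apart. The libraries of both groups also fell into 3 with high and 3 with low counts of the cytokine gene IL1B (619 to 1512 against 4 to 12 counts in siNC; 449 to 1196 against 2 to 8 in siZCC), a division that the labels do not name.

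The promoters of 3 binding protein genes are given as context for the values that follow: IGFBP4, whose transcript differed most clearly between the groups, IGFBP3, whose level varied most relative to its mean among the binding proteins over 1 CPM (coefficient of variation 24.01% over siNC and 37.8% over siZCC), and IGFBP5, the binding protein gene with the most reads. Each is the 250 bases before the RefSeq start (GRCh38.p14), read 5′ to 3′ on the gene's strand. Capitals mark matches, on either strand, to the TATA box (TATAAA), the GC box (GGGCGG), the CCAAT box (CCAAT), the forkhead element (TGTTTAC) and the E-box (CACGTG). The RefSeq start of IGFBP3 lies 602 bases downstream of the start in GENCODE v29, from which the gene positions given with the values are taken, so its window lies inside the gene as GENCODE draws it. The 5 words were held by 10.7%, 42.6%, 32.0%, 2.98% and 6.34% of 35116 windows of this length.
IGFBP4 (chr17:40443200-40443449, plus strand): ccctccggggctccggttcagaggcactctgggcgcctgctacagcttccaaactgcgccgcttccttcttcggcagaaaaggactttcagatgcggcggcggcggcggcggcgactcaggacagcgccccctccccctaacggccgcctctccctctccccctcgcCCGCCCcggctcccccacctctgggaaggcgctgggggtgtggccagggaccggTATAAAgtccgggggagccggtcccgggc
IGFBP3 (chr7:45921273-45921522, minus strand): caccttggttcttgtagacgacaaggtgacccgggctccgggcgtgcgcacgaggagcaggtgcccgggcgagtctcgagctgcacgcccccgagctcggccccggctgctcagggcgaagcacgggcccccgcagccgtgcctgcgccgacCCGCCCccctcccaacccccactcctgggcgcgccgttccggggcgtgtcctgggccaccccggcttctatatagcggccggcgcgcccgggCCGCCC
IGFBP5 (chr2:216695550-216695799, minus strand): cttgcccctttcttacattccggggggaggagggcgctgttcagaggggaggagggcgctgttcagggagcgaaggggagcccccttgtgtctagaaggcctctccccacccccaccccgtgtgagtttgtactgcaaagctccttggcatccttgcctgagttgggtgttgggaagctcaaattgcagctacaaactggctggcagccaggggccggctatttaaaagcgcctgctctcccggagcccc
The IGFBP4 window held 1 TATA box word, starting 29 bases before the start of the gene, and 1 GC box. The IGFBP3 window held 2 GC boxes, and the IGFBP5 window held none of the 5 words. Only these exact words were searched. Similar stretches, such as tatatag in the IGFBP3 window and tatttaaaa in the IGFBP5 window, were therefore not marked. The words alone do not tell which of these promoters has a TATA element. A match describes the letters and is not a binding site, and windows were not tested against expression.

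Among the binding proteins, IGFBP4 was 1.47-fold higher and IGFBP7 1.11-fold higher after the ZCCHC17 siRNA, and the receptors and the most abundant binding proteins did not pass the test. Of the 9 members tested, 2 were higher and 0 lower in siZCC at the 0.05 threshold (quasi-likelihood test of edgeR, p-values adjusted by Benjamini-Hochberg over 24671 genes), while 7 did not pass. Over all genes tested 22.2% were called, 11.4% as higher and 10.8% as lower, so the number of members called was near the background. The median log2 fold change was -0.01 over the 9 members and -0.0016 over all genes. Only IGFBP4 had groups that did not overlap, a separation found in 9.74% of all genes, and in 5.25% with siZCC higher.

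**Figure D1:**
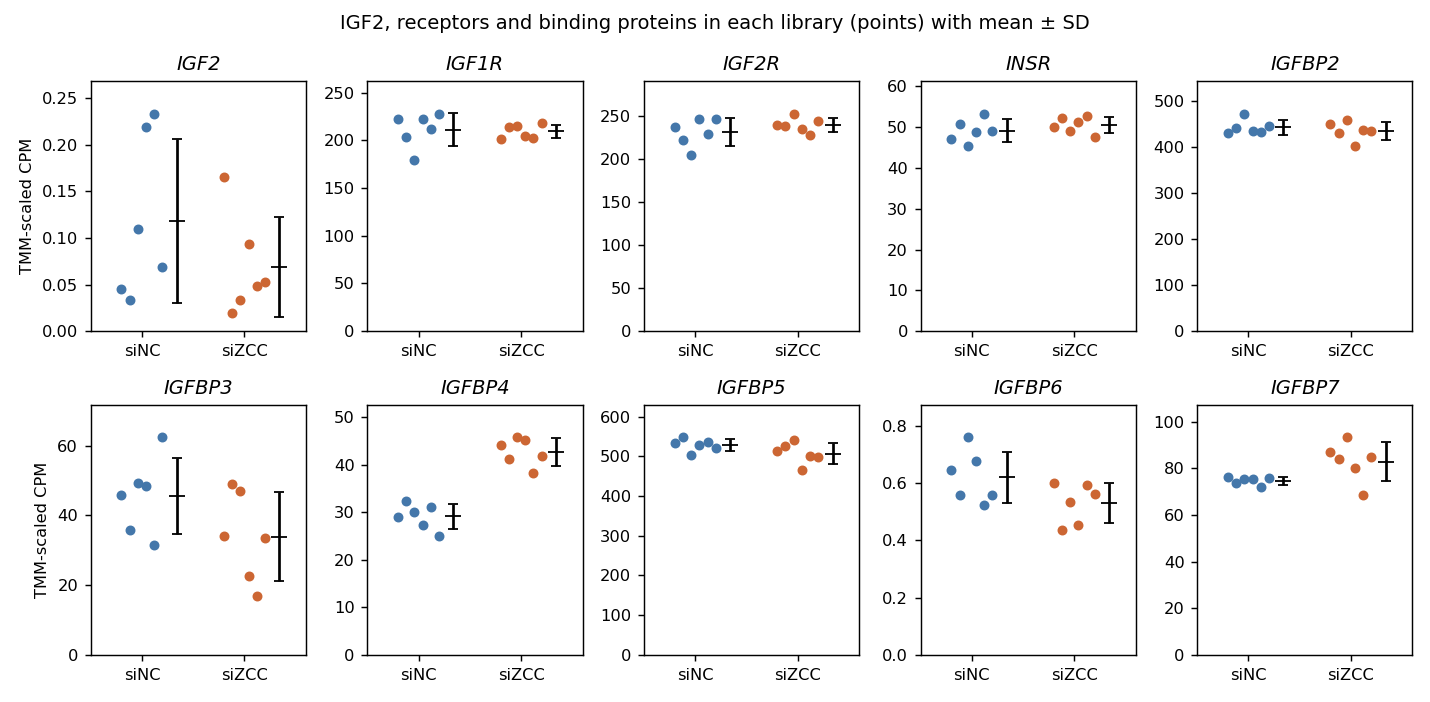
TMM-scaled CPM (vertical axes, each from 0) of the 10 genes in the 6 siNC libraries (blue) and the 6 siZCC libraries (orange), 1 point per library in replicate order, with the mean and SD in black. The IGFBP4 points of siZCC all lie above those of siNC, and the other genes overlap.

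IGF2, the ligand gene, gave almost no reads. It had 4 to 28 counts per library in siNC and 2 to 14 counts in siZCC, which was 0.0339 to 0.233 CPM (median 0.0893) and 0.0190 to 0.165 CPM (median 0.0508). The groups overlapped, although 2 of the siZCC libraries lay under all of siNC, with a two-sided exact permutation p of 0.266. IGF2 therefore has no row in the test of all genes; with no filter on low counts its log2 fold change was -0.80 with an adjusted p of 0.346 in edgeR's quasi-likelihood test.

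The count of IGF2 may not be a safe measure of its transcript. In GENCODE v29 (GRCh38) 2 gene models carry the symbol on the minus strand of chromosome 11, from 2129112 to 2149603 and from 2129112 to 2158658, and 73.7% and 89.97% of their exon bases also lie in another gene model on that strand. These shares count the overlap of the 2 IGF2 models with each other and with AC132217.1, and INS-IGF2, a readthrough of insulin and IGF2, shares 20.6% of the IGF2 exon bases. The count table holds each symbol once. If the 2 models were counted as a single gene, their overlap with each other would lose no reads, but this is not given. INS-IGF2 (2132538 to 2161209) had 0 counts in all 12 libraries together. Of 258 protein-coding genes whose exons lie wholly inside other genes on the same strand, 35.3% were at 0 in every library, against 3.98% of 16224 genes with no such overlap. How the counting treated reads shared by genes is not given in the sources used here, and whether IGF2 reads were left out was not tested.

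Neighbours of IGF2 in the imprinted domain at 11p15.5 were read for the same reason. H19, the noncoding RNA gene expressed from the other parental copy, had 1.34 ± 0.168 CPM (SD, n = 6) in siNC and 1.24 ± 0.873 CPM (SD, n = 6) in siZCC, with a log2 fold change of -0.12 (SE 0.273; adjusted p 0.811, edgeR's quasi-likelihood test). That value rests on siZCC replicate 1, at 2.999 CPM, while the other 5 siZCC libraries stood at 0.748 to 1.08 CPM and 4 of 6 lay below every siNC library (1.08 to 1.54 CPM). Without that library the log2 fold change of H19 was -0.59 (SE 0.119; adjusted p 0.00278), and without any other library it was -0.17 to -0.01 and did not pass (adjusted p 0.730 to 0.981). IGF2-AS, transcribed from the opposite strand, had 0 to 3 counts per library, too few to be tested. Of the 10 genes of this list 8 were tested, with 1 higher, CD81, and 1 lower, PHLDA2, against 11.4% and 10.8% of all genes. CD81, a tetraspanin gene, rose from 230 ± 8.51 to 257 ± 10.95 CPM (SD, n = 6 each; log2 fold change 0.16, SE 0.0331, adjusted p 0.00200). PHLDA2, a growth-restraining gene of the placenta, fell by 0.47 on the log2 scale (SE 0.107, adjusted p 0.00443) from a low level of 1.71 ± 0.198 to 1.22 ± 0.175 CPM (SD, n = 6 each).

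The other ligands were as sparse. IGF1 had 19 to 31 counts per library in siNC and 7 to 25 in siZCC, or 0.221 ± 0.0260 and 0.149 ± 0.0842 CPM (SD, n = 6 each), and its log2 fold change of -0.60 (SE 0.278) did not pass (adjusted p 0.138, edgeR's quasi-likelihood test). It too was highest in siZCC replicate 1, at 0.295 CPM. Without that library, singled out by its high value, the log2 fold change was -0.91 (adjusted p 0.0153 in the same test). Without any other single library it was -0.67 to -0.45 and did not pass (adjusted p 0.134 to 0.267). HELLPAR, on the opposite strand, covers 82.4% of the exon bases of IGF1. The strand setting of the counting is not given, so the count of IGF1 may not be a safe measure either. INS, the insulin gene, had 1 count in all 12 libraries together, and INS-IGF2 shares 31.7% of its exon bases on the same strand. The ligand genes were thus counted at under 1 CPM in libraries that held up to 246 CPM of a receptor and up to 548 CPM of a binding protein in siNC. These CPM are not divided by length, and merged exons span 17843 bases in IGF2R against 776 bases in INS. Choroid plexus, a known source of IGF2, had 5 of 8 markers under 1 CPM, among them TTR, its defining secreted protein. Over 1 CPM were FOLR1, AQP1 and the most abundant, OTX2, which is also a gene of brain patterning. For the other known sources, summed marker levels in siNC were 105 to 340 CPM (fibroblast, meningeal or mesenchymal), 314 to 385 CPM (pericyte or smooth muscle) and 16.4 to 22.04 CPM (endothelial). The part of such cells in the IGF2 counts was not tested.

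The 3 receptor genes kept their levels within the spread of the libraries. IGF1R, on chromosome 15 (98648539 to 98964530, plus strand), ran from 180 to 228 CPM in siNC (median 217) and from 201 to 218 CPM in siZCC (median 209). All siZCC values lay inside the siNC range. The log2 fold change was -0.01 (SE 0.0469; 95% interval -0.11 to 0.09; adjusted p 0.875, edgeR's quasi-likelihood test).

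IGF2R, on chromosome 6 (159969099 to 160113507, plus strand), ran from 204 to 246 CPM in siNC (median 233) and from 227 to 252 CPM in siZCC (median 238). One siZCC library lay above every siNC library and the groups otherwise overlapped. Its log2 fold change was 0.05 (SE 0.0416; 95% interval -0.04 to 0.14; adjusted p 0.406). INSR, on chromosome 19 (7112255 to 7294034, minus strand), ran from 45.3 to 53.3 CPM in siNC (median 49.0) and from 47.5 to 52.7 CPM in siZCC (median 50.6), again with siZCC inside the siNC range. The log2 fold change of INSR was 0.04 (SE 0.0385; 95% interval -0.04 to 0.12; adjusted p 0.511). Per kilobase of merged exons, IGF1R was the most abundant of the 3 receptors, at 15.2 ± 1.27 CPM per kb in siNC (SD, n = 6), overlapping IGF2R at 12.9 ± 0.906, while INSR was lower than both at 4.70 ± 0.268. In siZCC IGF1R (14.5 to 15.7 CPM per kb) lay just above IGF2R (12.7 to 14.1). The level of IGF1R per kb was 3.23 ± 0.270 times that of INSR in siNC and 3.12 ± 0.205 times in siZCC (SD, n = 6 each).

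IGFBP2 and IGFBP5 made up most of the binding protein transcripts. They lie next to each other on chromosome 2 in opposite orientation, IGFBP2 from 216632828 to 216664436 on the plus strand and IGFBP5 from 216672105 to 216695525 on the minus strand. IGFBP2, which is abundant in fetal brain, ran from 429 to 472 CPM in siNC (median 437) and from 401 to 458 CPM in siZCC (median 435). One siZCC library lay below every siNC library, and the difference did not pass (log2 fold change -0.02, SE 0.0330; 95% interval -0.09 to 0.05; adjusted p 0.673, edgeR's quasi-likelihood test).

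IGFBP5, which binds to extracellular matrix, ran from 503 to 548 CPM in siNC (median 531) and from 465 to 541 CPM in siZCC (median 507). Here 3 of 6 siZCC libraries lay below every siNC library, but the difference was small and did not pass (log2 fold change -0.06, SE 0.0341; 95% interval -0.13 to 0.01; adjusted p 0.228). An antisense gene, AC007563.2, covers 4.63% of the exon bases of IGFBP5.

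**Figure D2:**
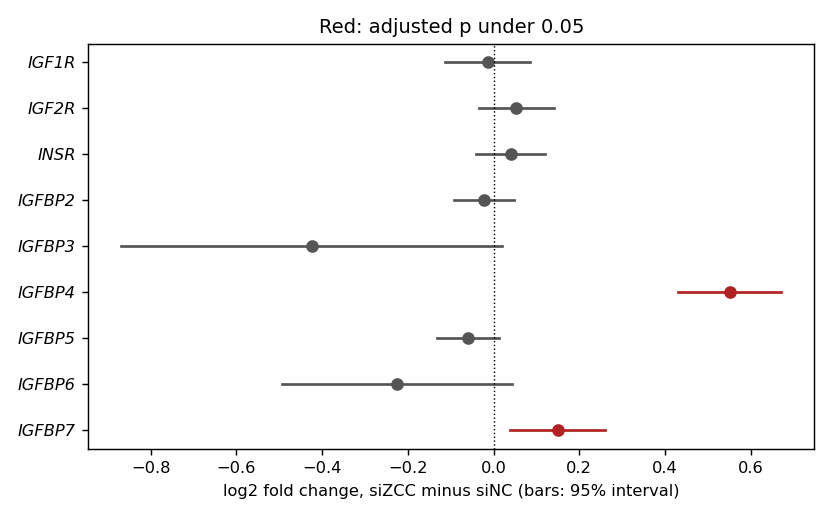
Log2 fold change of siZCC minus siNC (horizontal axis) for the 9 members tested, with 95% intervals as bars; red marks an adjusted p under 0.05. IGFBP4 at 0.55 and IGFBP7 at 0.15 are red, the receptors, IGFBP2 and IGFBP5 have narrow intervals across 0, and IGFBP3 has the widest.

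IGFBP4 was the member that changed most clearly. It encodes a binding protein that mainly inhibits IGF action until it is cut by pappalysin, and lies on chromosome 17 (40443461 to 40457731, plus strand). Its level ran from 25.1 to 32.4 CPM in siNC (median 29.5) and from 38.2 to 45.8 CPM in siZCC (median 43.0), from 2493 to 3816 counts a library in siNC and 3144 to 4327 in siZCC. Every siZCC library was above every siNC library. The rise was 1.47-fold (log2 fold change 0.55, SE 0.0570; 95% interval 0.43 to 0.67; adjusted p 5.58e-06, edgeR's quasi-likelihood test). A two-sided exact permutation p was 0.00216, the lowest value open to groups of 6.

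By p-value IGFBP4 ranked 107 among the 24671 genes, and it was called against a minimum change of 1.2-fold, a test that 1.41% of all genes passed and no other member did. The rise was alike in both sets of IL1B libraries, at 0.54 (SE 0.0879) with high IL1B and 0.56 (SE 0.0592) with low IL1B, and it remained between 0.51 and 0.58 when each library was left out in turn. The level of the protease gene PAPPA, whose product cuts IGFBP4, was 1.57 ± 0.313 CPM (SD, n = 6) in siNC and 1.84 ± 0.338 CPM (SD, n = 6) in siZCC (log2 fold change 0.23, SE 0.137, adjusted p 0.261). Its inhibitor genes STC1 (log2 fold change -0.13, SE 0.0688) and STC2 (-0.12, SE 0.251) did not pass either (adjusted p 0.187 and 0.788 by the same edgeR test). Beside the rise of IGFBP4, the astroglial markers summed to 1177 to 1338 CPM in the siNC libraries and 1256 to 1515 CPM in the siZCC libraries. Of these markers 3 of 7 were higher and 1, AQP4, was lower. Most of the sum came from GFAP (mean 616 CPM in siNC and 653 CPM in siZCC), which did not pass, and SLC1A3 (425 and 522 CPM), which was higher. Neural progenitor markers had the same calls, 3 of 9 higher and 1 lower, and all 8 markers of dividing cells were lower. The part of cell composition in the IGFBP4 values was not tested.

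IGFBP7 encodes a secreted protein that binds IGFs weakly and is deposited around vessels, and lies on chromosome 4 (57030773 to 57110385, minus strand). It ran from 71.9 to 76.3 CPM in siNC (median 75.5) and from 68.4 to 93.3 CPM in siZCC (median 84.4). Of the siZCC libraries 5 lay above every siNC library and 1, replicate 5, lay below them all. The log2 fold change was 0.15 (SE 0.0522; 95% interval 0.04 to 0.26) with an adjusted p of 0.0489 in edgeR's quasi-likelihood test, with a two-sided exact permutation p of 0.0433.

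This call sat at the threshold. In the libraries of low IL1B the log2 fold change was 0.23 (SE 0.0495; adjusted p 0.0228) and in those of high IL1B 0.06 (SE 0.0725; adjusted p 0.636), and the difference between these effects did not pass (interaction adjusted p 0.935, edgeR's quasi-likelihood test). It was lost with DESeq2 size factors, upper quartile factors, limma voom and 1 surrogate variable (adjusted p 0.0507 to 0.0582), and in 11 of the 12 fits that left out 1 library (adjusted p up to 0.110). The exception was the fit without siZCC replicate 5, in which the log2 fold change was 0.20 and the adjusted p 0.00106. The genes IGFBP7-AS1 and POLR2B on the opposite strand cover 18.9% of the exon bases of IGFBP7, and the strand setting of the counting is not given in the sources used here. Markers of endothelial cells, in which IGFBP7 is known to be abundant, were scarce: 5 of 8, among them PECAM1, CDH5 and VWF, were under 1 CPM, and the summed level of the list was 16.4 to 22.04 CPM in siNC and 11.97 to 14.2 CPM in siZCC, with 0 higher and 3 lower, TEK, CLDN5 and ESAM. Markers of pericytes and smooth muscle, another source of IGFBP7, were more abundant (6 of 8 over 1 CPM; summed level 314 to 385 CPM in siNC and 278 to 344 CPM in siZCC), with 1 higher, PDGFRB, and 3 lower. Most of the sum came from ACTA2 (mean 214 CPM in siNC and 144 CPM in siZCC) and PDGFRB (83.5 and 112 CPM), while MYH11 and DES were under 1 CPM. The part of such cells in the values of IGFBP7 was not tested.

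IGFBP3, the main carrier of IGFs in blood and a gene that p53 and TGF-beta are known to induce, lies on chromosome 7 (45912245 to 45921874, minus strand). It ran from 31.5 to 62.3 CPM in siNC (median 47.2) and from 16.8 to 48.9 CPM in siZCC (median 33.8). The groups overlapped, with 2 of 6 siZCC libraries, replicates 4 and 5, below every siNC library. The log2 fold change was -0.42 (SE 0.211; 95% interval -0.87 to 0.02; adjusted p 0.167, edgeR's quasi-likelihood test), and the exact permutation p (two-sided) was 0.132. With the replicate number as a block the log2 fold change was -0.48 and the adjusted p 0.0420, but same-numbered libraries did not deviate together, so this block does not pair them.

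IGFBP3 was also read within each IL1B set. In the libraries with high IL1B it stood at 35.8 to 62.3 CPM in siNC and 16.8 to 34.01 CPM in siZCC, and the fit of those 6 libraries gave a log2 fold change of -1.01 (SE 0.232; adjusted p 0.0247, edgeR's quasi-likelihood test; 8.33% of genes were called in that fit). In the libraries with low IL1B it stood at 31.5 to 48.5 CPM in siNC and 33.6 to 48.9 CPM in siZCC, with a log2 fold change of 0.04 (SE 0.158; adjusted p 0.907; 6.47% of genes called). Within siZCC the high and low sets overlapped. The difference between these 2 effects, tested as an interaction, was -1.05 (SE 0.332) with an unadjusted p of 0.00646 and an adjusted p of 0.935 in edgeR's quasi-likelihood test, so it did not pass the correction over all genes. In that test 0 genes passed, and 4.77% had an unadjusted p under 0.05.

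**Figure D3:**
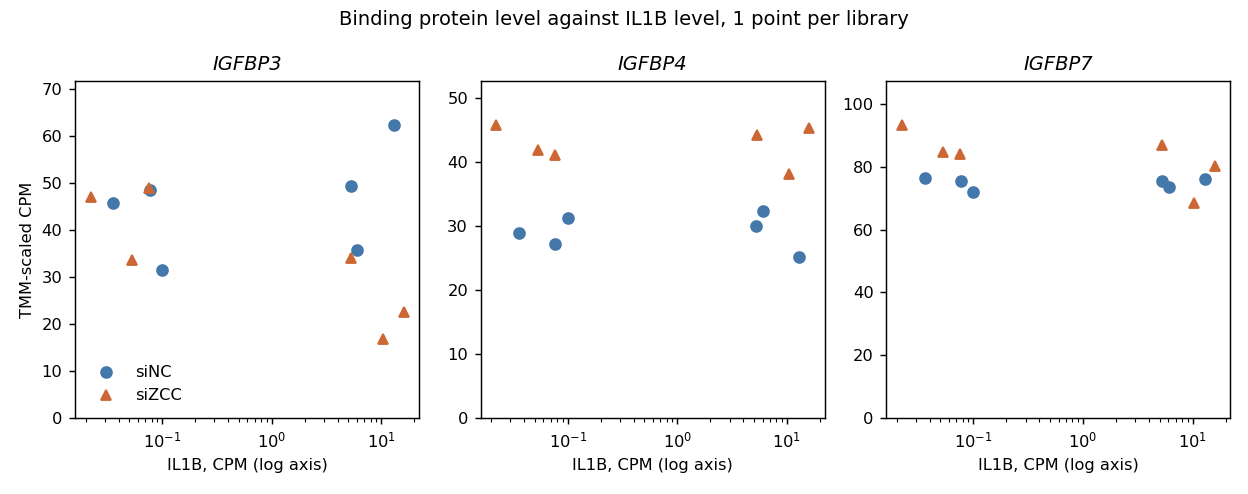
TMM-scaled CPM of IGFBP3, IGFBP4 and IGFBP7 (vertical axes, each from 0) against IL1B in CPM (horizontal log axes), 1 point per library, siNC as blue circles and siZCC as orange triangles. The libraries stand in a low and a high IL1B set; IGFBP3 of siZCC is at 16.8 to 34.01 CPM in the high set, while IGFBP4 of siZCC is above siNC in both sets.

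Markers of fibroblasts and other mesenchymal cells, which are known to make IGFBP3, varied between libraries of 1 group. Of 10 such markers 6 were over 1 CPM, and their summed level ran from 105 to 340 CPM in siNC and from 59.5 to 180 CPM in siZCC, most of it from COL1A1, a collagen gene, with 0 of the 9 tested higher and 4 lower. PDGFRA, TWIST1, FOXF1 and COL1A2 were under 1 CPM. In the libraries of high IL1B the sum was 105 to 136 CPM in siNC and 59.5 to 162 CPM in siZCC. Replicates 4 and 5 of siZCC, the lowest in IGFBP3, also had the lowest sums of all 12 libraries, 59.5 and 62.6 CPM, against 95.98 to 180 CPM in the other siZCC libraries. The siNC libraries did not show the same order. Replicate 6 of siNC was highest in IGFBP3, at 62.3 CPM, with a sum of 117 CPM. Replicate 4 of siNC had the highest sum, 340 CPM, with IGFBP3 at 48.5 CPM. The part of these cells in the values of IGFBP3 was not tested.

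IGFBP6, a binding protein with a preference for IGF2, was the lowest of the members tested, though counted in every library. On chromosome 12 (53097436 to 53102345, plus strand), it had 62 to 90 counts per library in siNC and 34 to 53 in siZCC, or 0.525 to 0.760 CPM (median 0.602) and 0.437 to 0.602 CPM (median 0.548). Of the siZCC libraries 2 lay below every siNC library, and the difference did not pass (log2 fold change -0.23, SE 0.128; 95% interval -0.49 to 0.04; adjusted p 0.227, edgeR's quasi-likelihood test).

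The make-up of the binding protein transcripts was then set out per kilobase of merged exons, the scale on which genes of unlike length can be compared. In siNC the order was IGFBP2 at 92.7 ± 3.26 CPM per kb, IGFBP5 at 82.1 ± 2.42, IGFBP7 at 38.7 ± 0.895, IGFBP4 at 13.3 ± 1.21, IGFBP3 at 9.97 ± 2.39 and IGFBP6 at 0.461 ± 0.0665 (SD, n = 6). IGFBP3 and IGFBP4 overlapped in siNC. In siZCC IGFBP4 (17.4 to 20.8 CPM per kb) stood above IGFBP3 (3.68 to 10.7) in every library.

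As shares of the summed IGFBP level per kb, IGFBP2 held 39.1% ± 1.02 in siNC and 38.0% ± 1.32 in siZCC, and IGFBP5 held 34.6% ± 1.31 and 32.8% ± 0.845. The share of IGFBP4 was 5.59% ± 0.523 in siNC and 8.10% ± 0.575 in siZCC (SD, n = 6 each), with ranges of 4.78% to 6.17% and 7.63% to 9.21% that did not overlap. IGFBP7 held 16.3% ± 0.321 and 17.9% ± 1.11, and IGFBP3 held 4.20% ± 0.982 and 3.04% ± 1.03. The sum itself was 237 ± 2.89 CPM per kb in siNC and 240 ± 13.7 in siZCC, so the total differed by less than the spread between the siZCC libraries. It was 7.27 ± 0.603 times the summed receptor level per kb in siNC and 7.22 ± 0.314 times in siZCC. These shares and sums are values with no test.

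**Figure D4:**
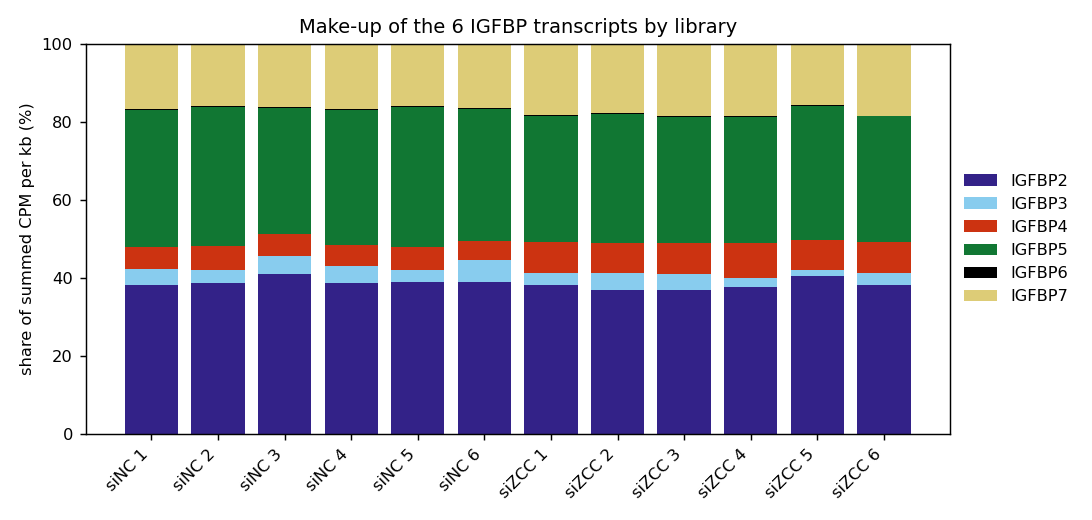
Share of each IGFBP gene in the summed CPM per kb of IGFBP2 to IGFBP7 (vertical axis, percent), 1 stacked bar per library. The IGFBP4 segment (red) is 4.78% to 6.17% in siNC and 7.63% to 9.21% in siZCC; IGFBP2 and IGFBP5 fill most of every bar.

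Other genes around the receptors were taken as lists by role. Of 85 such genes 78 were tested, and 11 were higher and 8 lower in siZCC, against 11.4% and 10.8% of all genes; their median log2 fold change was 0.01. This share is near the background. Among 4 further ligand, receptor and binding protein genes tested none was called, and IGFBPL1, an IGFBP-like gene of immature neurons, was the most abundant at 37.3 ± 2.38 and 34.9 ± 2.71 CPM (SD, n = 6 each).

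Of 9 genes for binding protein proteases and their inhibitors, 0 were higher and 1 lower, against 11.4% and 10.8% of all genes (median log2 fold change -0.09). That gene was ADAM12, a metalloprotease that cuts IGFBP3 and IGFBP5, with 12.2 ± 1.87 CPM (SD, n = 6) in siNC and 8.34 ± 2.30 CPM (SD, n = 6) in siZCC (log2 fold change -0.54, SE 0.148, adjusted p 0.0145, edgeR's quasi-likelihood test); its groups overlapped. The most abundant of the list, ADAM9 and HTRA1, did not pass.

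Among 19 receptor adaptor and phosphatase genes 2 were higher and 4 lower, against 11.4% and 10.8% of all genes (median log2 fold change -0.0025). GRB10, an adaptor that restrains IGF1R and insulin receptor signalling and is itself imprinted, went from 72.5 ± 2.32 to 64.6 ± 1.19 CPM (SD, n = 6 each) and fell by 0.17 on the log2 scale (SE 0.0275). SOCS3, a cytokine-induced inhibitor, fell by 0.51 (SE 0.0918), and SHC2, a neuronal adaptor, rose by 0.22 (SE 0.0408). IRS1, a main docking protein of IGF1R that was named after its value was seen, went from 58.9 ± 8.06 to 47.9 ± 2.09 CPM (SD, n = 6 each) and fell by 0.30 (SE 0.0681), while IRS2 stood at 227 ± 9.35 and 230 ± 14.97 CPM with a log2 fold change of 0.02 (SE 0.0409). Adjusted p in edgeR's quasi-likelihood test ran from 4.20e-04 for GRB10 to 0.00492 for IRS1 among these 4, and was 0.763 for IRS2. The remaining genes called, also named after their values were seen, were IRS4, which fell by 0.50 (SE 0.114, adjusted p 0.00475), and the phosphatase gene PTPN11, which rose by 0.10 (SE 0.0324, adjusted p 0.0278).

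Of 28 genes of the PI3K, AKT, mTOR and FOXO core, the main route from IGF1R to growth and survival, 6 were higher and 1 lower (median log2 fold change 0.02). Over all genes 22.2% were called, 11.4% as higher and 10.8% as lower, and the list as a whole was not tested. PIK3R3, a regulatory subunit of PI3 kinase, fell from 158 ± 4.52 to 120 ± 8.04 CPM (SD, n = 6 each) without overlap of the groups (log2 fold change -0.40, SE 0.0390, adjusted p 3.18e-06). The catalytic subunit gene PIK3CB rose by 0.25 (SE 0.0378, adjusted p 1.73e-04) and MLST8, a shared subunit of the mTOR complexes, rose by 0.26 (SE 0.0431, adjusted p 4.26e-04), all in edgeR's quasi-likelihood test.

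**Figure D5:**
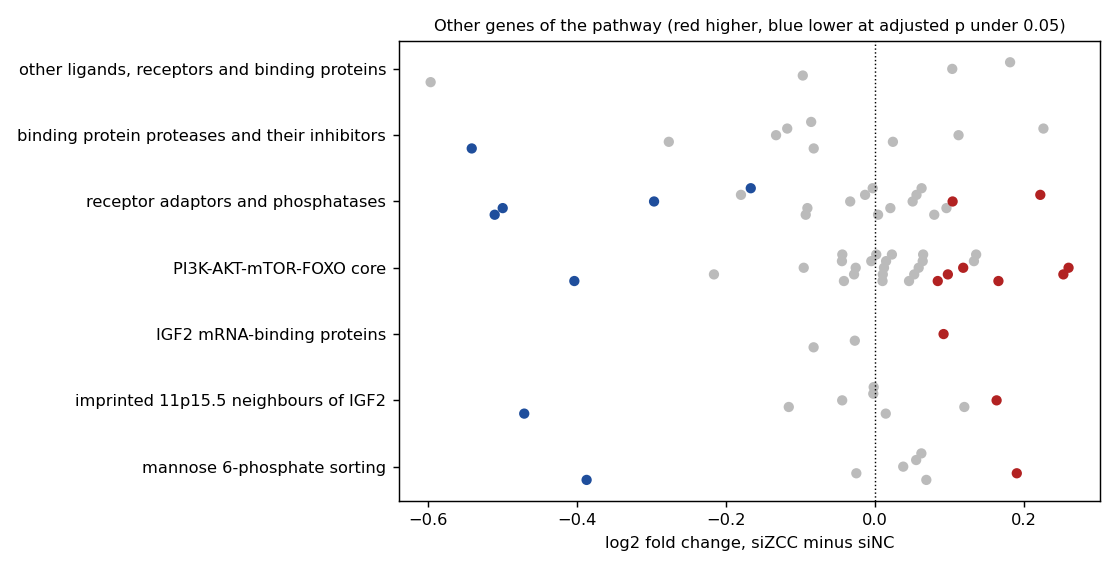
Log2 fold change of siZCC minus siNC (horizontal axis) for the 78 other pathway genes tested, 1 point per gene, in rows by role; vertical offsets within a row only separate points. Red marks genes called higher and blue genes called lower at an adjusted p under 0.05, 11 and 8 in all, on both sides of 0.

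The genes that carry the IGF2 message or share the route of IGF2R were also read. Of the 3 IGF2 mRNA-binding protein genes, IGF2BP2 rose slightly, from 147 ± 3.37 to 157 ± 4.08 CPM (SD, n = 6 each; log2 fold change 0.09, SE 0.0264, adjusted p 0.0183), and the other two did not pass. Of 7 genes of mannose 6-phosphate sorting, the pathway in which IGF2R delivers lysosomal enzymes, 1 was higher and 1 lower, against 11.4% and 10.8% of all genes. So few calls are near the background. Both genes encode parts of the same enzyme. GNPTAB, which encodes the catalytic subunits of the phosphotransferase that makes the mannose 6-phosphate tag, fell from 70.1 ± 3.20 to 53.6 ± 1.99 CPM (log2 fold change -0.39, SE 0.0346, adjusted p 1.43e-06). GNPTG, which encodes its remaining subunit, rose from 69.2 ± 3.17 to 78.9 ± 2.08 CPM (SD, n = 6 each; log2 fold change 0.19, SE 0.0324, adjusted p 5.18e-04, edgeR's quasi-likelihood test). Neither pair of groups overlapped, a separation found in 9.74% of all genes, while M6PR, the smaller mannose 6-phosphate receptor, had a log2 fold change of 0.07 (SE 0.0302, adjusted p 0.112).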

How the data were processed

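The authors deposited raw counts per gene symbol, 1 column per library. The submitters' processing notes name bcl2fastq 2.17, STAR 2.7.6a, featureCounts 2.0.1 and GRCh38; the annotation, strand setting and handling of shared reads are not given in the sources used here. Groups and replicate numbers came from the sample titles. Counts were analysed in R 4.3.3 with edgeR 4.0.16: filterByExpr defaults (24671 genes kept), TMM factors, and the quasi-likelihood test over all 12 libraries without covariates, with Benjamini-Hochberg adjustment over all genes kept and a threshold of 0.05. CPM were divided by the scaled totals of the kept genes; log2 CPM used a prior count of 2. Standard errors are the log2 fold change divided by the square root of F. The exact permutation test used all 924 assignments. Positions and merged exon lengths came from GENCODE v29, and promoters from RefSeq (8 of 10 members matched). The test was checked on simulated counts. Depth makes counting error small for members other than IGF2 and IGFBP6.

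The members and lists were chosen with earlier results of these data known. The rule names all 10 members, ZCCHC17, H19, INS-IGF2, IGF2-AS and IGF1, up to 3 called genes with the smallest p in each pathway list, and abundant cell type markers; other genes were named after their values were seen. Alternatives were DESeq2 1.42.0 size factors and its Wald test, upper quartile factors, no filter or a mean count of at least 50, limma 3.58.1 voom, glmTreat at 1.2-fold, the replicate number or the IL1B split as a block, 1 surrogate variable (sva 3.50.0), an offset for GC content and length, fits within each IL1B set, and leaving out each library. The IL1B interaction, and these alternatives for named genes other than members, were added after seeing the data. Same-numbered libraries did not deviate together (correlations -0.08 to 0.02), so the numbers do not pair them.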

Additional observations from a re-analysis of the deposited data

Results flagged for a closer look

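Among 52 groups of 6 values examined (10 members, 15 other named genes and the library totals, in each treatment), 6 had a library whose gap to the nearest other one, as a part of the whole range, was above Dixon's 95% critical value; about 1 in 20 groups does so by chance. IGFBP2 was highest in siNC replicate 3, at 8.88 in log2 CPM against 8.75 to 8.79 in the rest of siNC, a gap of 0.638 of the range. The library total was lowest in siNC replicate 4, at 90755953 counts, where the rest of siNC held 109973707 to 120023356, a gap of 0.657 of the range. H19 was highest in siZCC replicate 1, at 1.59 in log2 CPM against -0.38 to 0.14 in the rest of siZCC (0.737 of the range). GRB10 was highest in siZCC replicate 3, at 6.07 in log2 CPM against 5.99 to 6.02 (0.665 of the range), and MLST8 was lowest in siZCC replicate 2, at 5.93 against 6.09 to 6.19 (0.637 of the range). PHLDA2 was lowest in siNC replicate 5, at 0.42 in log2 CPM against 0.79 to 0.92 in the rest of siNC (0.754 of the range). Without siNC replicate 3 the log2 fold change of IGFBP2 was -0.0027.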

How the results depend on the processing

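IGFBP4 kept its rise and its call in each alternative in which it was tested. For IGFBP7 the log2 fold change stayed above 0, at 0.15 with DESeq2 size factors and in the 1.2-fold test, 0.14 with upper quartile factors and with limma voom, 0.18 with 1 surrogate variable and 0.063 in the libraries of high IL1B, all past the threshold no longer; leaving out single libraries gave 0.12 to 0.20. In the same settings other than the high IL1B set, and in 11 of 12 fits without 1 library, 1 member was called in place of 2 (range 1 to 2). IGFBP3 passed in the replicate block (-0.48) and in the libraries of high IL1B (-1.01) and turned to 0.043 in those of low IL1B. Values near 0 changed sign for IGFBP2 (1.15e-04 with 1 surrogate variable, 0.029 with low IL1B), INSR (-0.0037 with low IL1B) and IGF1R (-0.055 to 0.010 when single libraries were left out). In the replicate block, which does not pair the libraries, the other members kept their calls. The cause of these changes was not tested. All genes called numbered 349 in the 1.2-fold test, 2055 with high and 1597 with low IL1B, and 4481 to 5626 without single libraries; other pathway genes called numbered 2, 12 and 9, and 16 to 23. The main fit called 5481 genes, so leaving out 1 library gave fewer or more calls. The 1.2-fold test is stricter by construction, and the fits within an IL1B set hold fewer libraries. Without division by length the siNC shares were 2.60% for IGFBP4, 47.2% for IGFBP5, 0.0554% for IGFBP6 and 6.67% for IGFBP7. Of 13 other named genes called, 10 lost the call in the 1.2-fold test, 6 with low IL1B (ADAM12, CD81, IGF2BP2, PHLDA2, SHC2 and SOCS3), IGF2BP2 with high IL1B and with no filter, and ADAM12 with 1 surrogate variable; none was lost without a single library. H19 turned to 0.25 with high IL1B and passed with low IL1B (-0.55). IGF2, IGF1 and IGFBP6 rest on under 100 counts per library.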
